A study of Jatropha curcas with 22 samples.

Results

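Genes that make and break down abscisic acid were followed through drought and rewatering in leaf and root of Jatropha curcas, an oilseed shrub that tolerates dry soils. The members were chosen by identifier, 4 of the 57437 gene models in the deposited count table. Jcr4S15630.10 is described there as nine-cis-epoxycarotenoid dioxygenase 5 (NCED5). Jcr4S00215.20 carries the description "zeaxanthin chloroplastic-like", from which the name of the enzyme is missing, so it is called here the zeaxanthin-annotated gene. Jcr4S05715.10 is described as an abscisic acid 8'-hydroxylase 2-like gene and Jcr4S01285.10 as abscisic acid 8'-hydroxylase 4 isoform 1. Neither positions nor sequences of these gene models are given here.

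Abscisic acid (ABA) is the hormone that closes stomata and switches on protective genes when plants dry out. Plants build it from carotenoids in the plastid: zeaxanthin is epoxidised, and a nine-cis-epoxycarotenoid dioxygenase then cuts the epoxycarotenoid to xanthoxin, the step usually taken to limit the rate of synthesis. Breakdown starts with the ABA 8'-hydroxylases, cytochrome P450 enzymes that begin the conversion to phaseic acid, and both dioxygenases and hydroxylases come from small gene families whose members differ in organ and timing in other plants.

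RNA was sequenced from seedlings of the strain labelled Cape Verde islands, 36 days old when treatment began and grown in pots in a greenhouse. The 22 libraries fall into 11 groups of 2. Leaf was sampled from watered plants on day 0, and both organs were sampled from watered plants on day 13, from plants without water for 13 days (moderate drought), from plants without water for 49 days (severe drought), from rewatered plants on day 52, and from watered plants labelled jointly day 49/52 (the late control). Leaves were young and at most 2 cm long, roots were taken as tips, and material was pooled from 6 plants on days 0 and 49 and from 3 plants on days 13 and 52. Rewatering lasted 7 days by the treatment protocol and 3 by the design text. No source used here says whether the libraries of a group came from separate pools, and p-values therefore reflect the spread between the sequenced libraries alone, which may be technical.

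Libraries held 37104762 to 82215677 counted reads. Levels are CPM, read counts scaled to a common library size with edgeR's TMM factors. A gene was called where edgeR's quasi-likelihood test, adjusted by Benjamini-Hochberg over all genes tested, gave p under 0.05. The labelled organs could be told apart by photosynthesis genes: 51 of them summed to between 14107 and 25187 CPM in leaf libraries and to between 107 and 292 CPM in root libraries. A list of 7 genes named for root structures did not separate the organs as well, with sums of 253 to 333 CPM in leaf and 306 to 463 CPM in root. In bulk tissue, fewer cells of a type and less RNA per cell cannot be told apart.

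The genes differed first by organ. NCED5 and the 8'-hydroxylase 4 isoform 1 were root genes, the 8'-hydroxylase 2-like gene was a leaf gene that appeared in root in severe drought, and the zeaxanthin-annotated gene was present in both. All 4 members differed between leaf and root on watered day 13, where 58.7% of all genes tested were called, under moderate drought (57.2% of all genes) and in the late control (63%), 3 did under severe drought (41.7%), and all 4 did after rewatering (63.2%). The 8'-hydroxylase 4 isoform 1 passed the filter on low counts for these tests through root alone, and its call on watered day 13 rests on 42 root reads against 1 leaf read and was absent with limma on the RPKM plus 1 (adjusted p = 1) or plus 0.1 (0.92). On the deposited RPKM scale, which corrects for gene length and whose lowest value is 1.0, the 8'-hydroxylase 2-like gene was the highest of the 4 in late control leaf at 5.80 ± 0.566 (SD, n = 2). In severe leaf the zeaxanthin-annotated gene was highest at 24.8 ± 4.88 RPKM (SD, n = 2), above the 8'-hydroxylase 2-like gene at 12.8 ± 1.56. In moderate root NCED5 was highest at 52.7 ± 13.4 RPKM (SD, n = 2), and in severe root the order was the zeaxanthin-annotated gene at 31.8 ± 0.424, NCED5 at 11.4 ± 1.41, the 8'-hydroxylase 2-like gene at 5.85 ± 1.20 and the 8'-hydroxylase 4 isoform 1 at 5.10 ± 0.424. The libraries of the last pair overlapped, at 6.7 and 5.0 RPKM against 5.4 and 4.8.

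**Figure D1:**
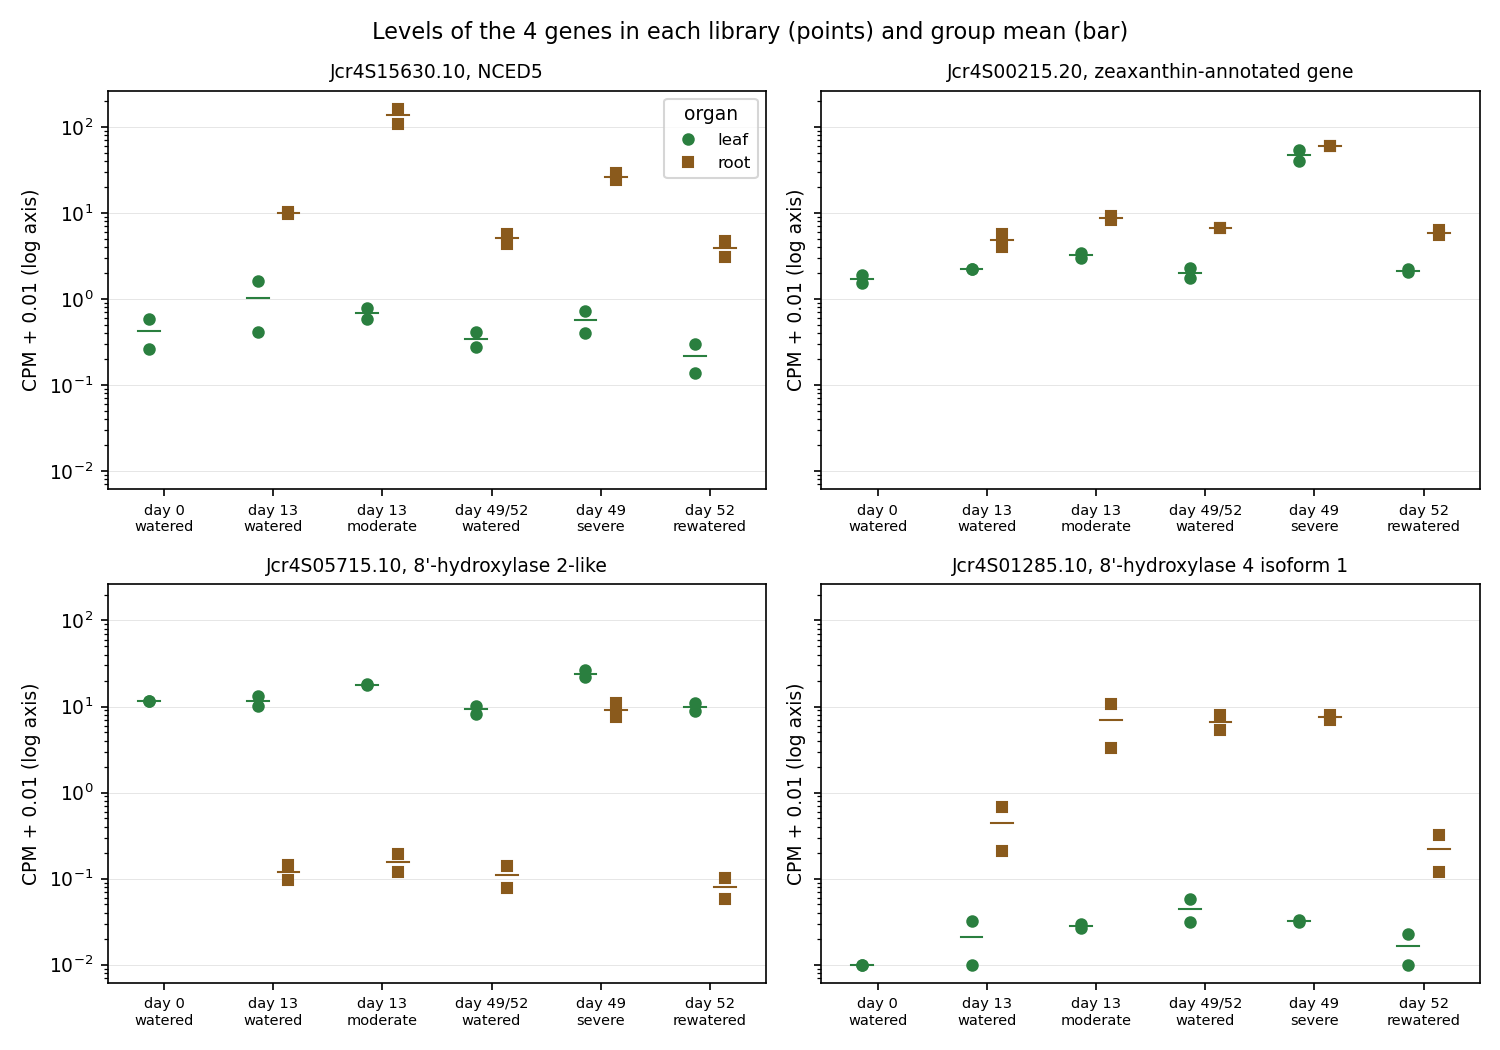
Level of each of the 4 genes (CPM plus 0.01, log axis) in the 22 libraries, with leaf as green circles, root as brown squares and a bar at each group mean of 2 libraries. NCED5 is highest in moderately droughted root, the zeaxanthin-annotated gene in severe drought in both organs, the 8'-hydroxylase 2-like gene in leaf, and the 8'-hydroxylase 4 isoform 1 in 3 of the 5 root groups.

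Under moderate drought members were called in root only, and the organ difference itself was called for NCED5 alone. NCED5 rose 13.9-fold and the 8'-hydroxylase 4 isoform 1 rose 15.8-fold there, so that 2 of 4 members were called higher in root, where 2.74% of all genes were called (1.98% higher and 0.754% lower). In leaf 0 of 3 members tested were called, against 0.00431% of all genes (1 gene), a comparison in which edgeR gave 2007 genes an unadjusted p under 0.05 and DESeq2 called 258. The zeaxanthin-annotated gene and the 8'-hydroxylase 2-like gene were not called in either organ.

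Under severe drought the zeaxanthin-annotated gene and the 8'-hydroxylase 2-like gene rose in both organs. In leaf 2 of 3 members tested were called, both higher, against 57.1% of all genes called in either direction (27.6% higher and 29.5% lower), and in root 3 of 4 were called, all higher, against 45.1% (19.5% higher and 25.6% lower). NCED5 was the other member called in root, in both droughts, while its severe drought effect was not called different between organs. The 8'-hydroxylase 2-like gene, counted among those called in root, passed the filter on low counts there through the severe group alone. The median log2 change over all genes was 0.03 in severe leaf and -0.04 in severe root.

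**Figure D2:**
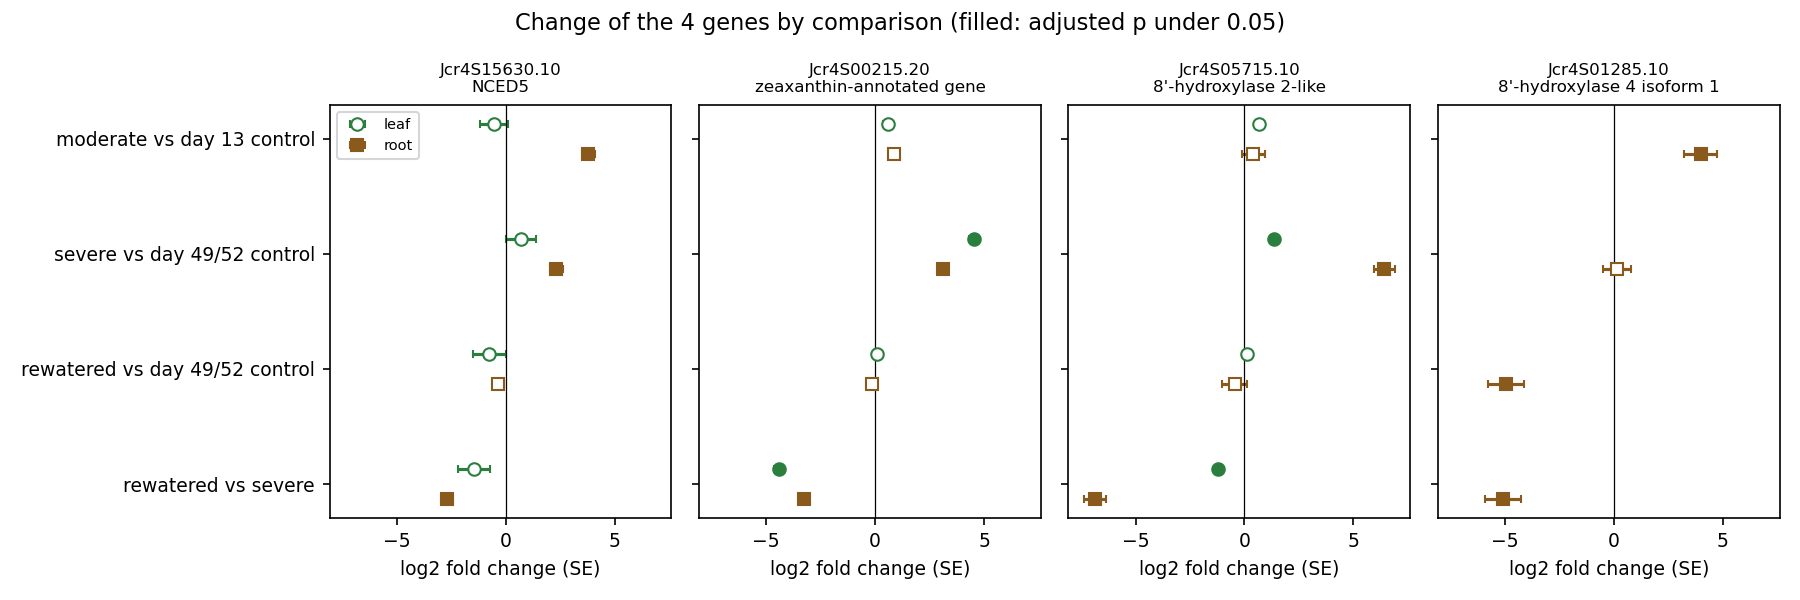
Log2 fold change with its standard error for each gene in 4 comparisons (rows) in leaf (circles) and root (squares); filled symbols passed an adjusted p of 0.05, and the 8'-hydroxylase 4 isoform 1 was not tested in leaf. Filled symbols lie to the right under drought and to the left after rewatering.

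NCED5, the synthesis gene, had its highest level in moderately droughted root. Its level was 163 and 110 CPM in the 2 moderate root libraries and 9.66 and 10.4 CPM in the day 13 root controls. The groups did not overlap, and the log2 change was 3.80 (SE 0.30, edgeR adjusted p = 0.011). Without day 13 root control replicate 2 the log2 change was 3.82 with an adjusted p of 0.084, and in a fit of only the groups compared it was 3.79 with an adjusted p of 0.074.

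In severe root NCED5 stood at 28.8 and 24.0 CPM against 5.75 and 4.37 CPM in the late root controls. That was 5.03-fold higher (log2 2.33, SE 0.28, edgeR adjusted p = 0.00065), with no overlap between the groups, and against the day 13 root control it was 1.37 on the log2 scale, still called (adjusted p = 0.0038). The severe effect in root was smaller than the moderate effect, by a log2 difference of -1.46 (SE 0.38, adjusted p = 0.024). That difference was called without moderate replicate 2 or late control replicate 2, and was not called without any one of the other 6 root libraries of the comparison (log2 -1.51 to -1.16, adjusted p = 0.056 to 0.086), in 1 fit over all libraries (-1.39, 0.09) or with limma on the RPKM plus 0.1 (-1.24, 0.076).

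Rewatered root had 3.05 and 4.71 CPM of NCED5, 6.42-fold below severe root (log2 -2.68, SE 0.29, edgeR adjusted p = 0.00028) and overlapping the late control (log2 -0.35, SE 0.27, adjusted p = 0.41). Among watered roots the late control was 1.95-fold below day 13 (log2 -0.97, SE 0.27, adjusted p = 0.032). That call was absent without any one of day 13 replicate 1 (adjusted p = 0.063), day 13 replicate 2 (0.1), late control replicate 1 (0.072) and late control replicate 2 (0.18), in 1 fit over all libraries (0.093) and with limma on the RPKM plus 1 (0.092) or plus 0.1 (0.074).

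In leaf NCED5 stayed between 0.128 and 1.62 CPM. No leaf comparison was called, and the day 13 leaf controls were apart at 0.404 and 1.62 CPM, or 18 and 70 reads. Moderate leaf held 0.580 and 0.777 CPM, severe leaf 0.396 and 0.713 CPM, and the late leaf control 0.399 and 0.264 CPM. Against the late control, severe leaf changed by 0.71 on the log2 scale (SE 0.70, edgeR adjusted p = 0.4), and without day 13 control replicate 2 the moderate value turned from -0.54 to 0.77 with an adjusted p of 0.84.

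The order of NCED5 levels was moderate root, severe root, day 13 root control, late root control, rewatered root and then the 6 leaf groups. The late root control overlapped rewatered root, and each leaf group overlapped the next in the order. Leaf was below root in all 5 shared conditions, from 9.91-fold on watered day 13 (log2 -3.31, SE 0.50, edgeR adjusted p = 4.2e-05) to 201-fold under moderate drought (log2 -7.65, SE 0.58, adjusted p = 3.9e-08). The severe drought effect was not called different between organs (leaf minus root log2 -1.65, SE 0.77, edgeR adjusted p = 0.11). It was called under 5 of 17 alternative settings. The moderate drought effect was lower in leaf than in root, by a log2 difference of -4.34 (SE 0.69, adjusted p = 0.017), and 1 of 4 members was called in that test against 0.875% of all genes (0.254% higher and 0.621% lower in leaf). The organ difference was not called without any one of leaf day 13 control replicate 2 (log2 -3.03, adjusted p = 0.089), moderate leaf replicate 1 (-4.14, 0.087), moderate leaf replicate 2 (-4.56, 0.058) and moderate root replicate 1 (-4.03, 0.075), nor in the fit of only the groups compared (-4.36, 0.13).

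The zeaxanthin-annotated gene rose in severe drought in both organs. Zeaxanthin is the substrate of the epoxidase that supplies the ABA precursors, though the deposited description does not say which enzyme this gene encodes. In severe leaf it stood at 53.8 and 40.6 CPM against 1.72 and 2.30 CPM in the late control, 23.1-fold higher (log2 4.53, SE 0.23, edgeR adjusted p = 1e-07). In severe root it stood at 60.4 and 60.3 CPM against 6.67 and 6.75 CPM, 8.69-fold higher (log2 3.12, SE 0.19, adjusted p = 5.7e-05). The groups were far apart in both organs, and the severe levels of leaf and root were not called different (log2 -0.35, SE 0.19, adjusted p = 0.15).

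The rise of the zeaxanthin-annotated gene was larger in leaf by 1.39 on the log2 scale (SE 0.28, edgeR adjusted p = 0.0012), with 2 of 4 members called in this organ comparison against 35.7% of all genes. On the RPKM plus 1 scale the difference was 0.22 (limma adjusted p = 0.49), and on the RPKM plus 0.1 scale 0.38 (0.21). The RPKM values have a floor of 1.0 before any constant is added. The late controls averaged 2.15 RPKM in leaf and 3.70 in root, against 2.01 and 6.71 CPM. The part of that floor in the smaller difference was not tested. In the late control leaf was 3.34-fold below root (log2 -1.74, SE 0.20, edgeR adjusted p = 3.1e-06).

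Moderate drought moved this gene less. Moderate leaf held 2.97 and 3.45 CPM against 2.20 and 2.22 CPM on watered day 13 (log2 0.57, SE 0.21, edgeR adjusted p = 0.48). Moderate root held 9.13 and 8.20 CPM against 5.64 and 4.07 CPM (log2 0.86, SE 0.18, adjusted p = 0.051). Neither pair of groups overlapped. The root value just missed the threshold, and it passed with DESeq2 (adjusted p = 0.0038), with no filter on low counts (0.0084), with the stricter filter (0.044), in 1 fit over all libraries (0.015) and without day 13 root control replicate 1 (0.018).

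The severe effect exceeded the moderate effect by 3.96 on the log2 scale in leaf (SE 0.30, edgeR adjusted p = 5.1e-06) and by 2.26 in root (SE 0.25, adjusted p = 0.00092). In this test 1 of 3 members was called in leaf against 35.6% of all genes (15.2% higher and 20.4% lower), and 4 of 4 in root, 2 higher and 2 lower, against 30.3% (11.7% higher and 18.5% lower). The root count includes the 8'-hydroxylase 2-like gene, which passed the filter on low counts in root through the severe group alone.

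After rewatering the zeaxanthin-annotated gene fell in both organs. Rewatered leaf held 2.22 and 2.05 CPM, 21.4-fold below severe leaf (log2 -4.42, SE 0.23, edgeR adjusted p = 1.1e-07). Rewatered root held 6.30 and 5.55 CPM, 9.65-fold below severe root (log2 -3.27, SE 0.19, adjusted p = 4.4e-05). Against the late control neither organ was called (leaf 0.11, adjusted p = 0.78; root -0.15, adjusted p = 0.59). The fall was larger in leaf, by a log2 difference of -1.11 (SE 0.27, adjusted p = 0.0048), with 2 of 4 members called in this test against 38.1% of all genes, and on the RPKM scales this organ difference was at most 0.1 in size and not called (limma adjusted p = 1 on both).

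In the order of levels, severe root and severe leaf came first, followed by moderate root, the late root control, rewatered root, the day 13 root control and moderate leaf. The last 4 groups, all leaf, were the day 13 control, rewatered leaf, the late control and day 0, each overlapping the next, between 1.53 and 2.30 CPM. Among the root groups, rewatered root overlapped the day 13 control.

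The 8'-hydroxylase 2-like gene, a breakdown gene, was a leaf transcript that also appeared in root in severe drought. In leaf it stood at 26.2 and 21.8 CPM in severe drought against 8.28 and 10.2 CPM in the late control, 2.56-fold higher (log2 1.36, SE 0.19, edgeR adjusted p = 0.00017). In root it stood at 10.9 and 7.45 CPM (420 and 304 reads) against 0.131 and 0.0673 CPM (7 and 3 reads), 85.5-fold higher (log2 6.42, SE 0.48, adjusted p = 0.00012). The root groups did not come near each other, and in root the gene passed the filter on low counts through the severe group alone. Photosynthesis genes also moved in severe root: the 51 summed to between 194 and 239 CPM there against 114 to 154 CPM in the late root control, 129 to 152 CPM in moderate root and 107 to 145 CPM after rewatering, and were at 195 to 292 CPM in the day 13 root control, where this gene was near 0. Of the 41 tested in root, 15 rose and 2 fell in severe drought, and 2 rose and 22 fell after rewatering against severe drought, with 2 of the 51 at 0 in severe root and 4 in the late control. Their part in the root values of this gene was not tested.

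In the other 8 root libraries the 8'-hydroxylase 2-like gene lay between 0.0485 and 0.186 CPM, or 2 to 11 reads each. The rise in severe root exceeded that in severe leaf, by a leaf minus root difference of -5.08 (SE 0.43, edgeR adjusted p = 6.3e-07). Leaf was 88.9-fold above root in the late control (log2 6.47, SE 0.35, adjusted p = 1.2e-09) and 2.62-fold above it in severe drought (log2 1.39, SE 0.25, adjusted p = 0.00029). In root the severe effect exceeded the moderate effect by 6.01 on the log2 scale (SE 0.72, adjusted p = 0.0012).

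Moderate leaf held 18.1 and 17.7 CPM of this gene against 13.2 and 10.2 CPM on watered day 13 (log2 0.65, SE 0.19, edgeR adjusted p = 0.34). The groups did not overlap, and the test did not call the difference. The severe effect in leaf was above the moderate effect by 0.71 on the log2 scale (SE 0.27, adjusted p = 0.061), which passed with DESeq2 (0.04), with the stricter filter (0.041), without day 13 leaf control replicate 2 (0.041) and without late leaf control replicate 2 (0.044).

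After rewatering the 8'-hydroxylase 2-like gene stood at 8.89 and 11.0 CPM in leaf, 2.33-fold below severe leaf (log2 -1.22, SE 0.19, edgeR adjusted p = 3e-04). In root it stood at 0.0485 and 0.0907 CPM, 117-fold below severe root (log2 -6.87, SE 0.50, adjusted p = 7.5e-05). Both organs overlapped their late controls. Severe leaf and moderate leaf headed the order of levels. Day 0, day 13, rewatered and late control leaf followed, each overlapping the next, and the late control also overlapped severe root. The other 4 root groups came last, each overlapping the next.

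The 8'-hydroxylase 4 isoform 1 was a root transcript whose level did not follow drought alone. In root it stood at 10.8 and 3.25 CPM in moderate drought against 0.664 and 0.201 CPM in the day 13 controls (log2 3.99, SE 0.76, edgeR adjusted p = 0.043). In severe drought it stood at 8.06 and 7.01 CPM against 5.28 and 7.92 CPM in the late controls, groups that overlapped (log2 0.14, SE 0.64, adjusted p = 0.87). The watered late controls were themselves 14.7-fold above the watered day 13 controls (log2 3.88, SE 0.76, edgeR adjusted p = 0.0099), a comparison in which 2 of 4 members were called, 1 higher and 1 lower, against 30.9% of all genes (15.6% higher and 15.3% lower). The late root controls also had reads in more gene models (40952 and 38267) than any other root library (31702 to 36477). The part of this in the values set against them was not tested.

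With the day 13 root control in place of the late one, severe root was higher for the 8'-hydroxylase 4 isoform 1 by 4.02 on the log2 scale (edgeR adjusted p = 0.003). The severe minus moderate difference was -3.84 (SE 0.98, adjusted p = 0.022) with the late control and 0.04 (adjusted p = 0.97) with the day 13 control. The moderate call was absent without day 13 control replicate 2 (log2 3.39, adjusted p = 0.17) or moderate replicate 1 (2.88, 0.2), in the fit of only the groups compared (3.98, 0.13) and with limma on the RPKM plus 1 (1.10, 0.31) or plus 0.1 (1.52, 0.26). The difference between the watered root groups was not called without day 13 replicate 2 (3.30, 0.052) or late control replicate 2 (3.57, 0.056), nor with limma on the RPKM plus 1 (1.08, 0.15) or plus 0.1 (1.53, 0.11). The severe minus moderate difference was not called without day 13 replicate 2 (-3.19, 0.067), moderate replicate 1 (-2.74, 0.063), severe replicate 1 (-3.86, 0.073), severe replicate 2 (-3.75, 0.078) or late control replicate 2 (-3.54, 0.071), nor with limma on the RPKM plus 1 (-0.71, 0.6) or plus 0.1 (-1.04, 0.47).

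Rewatered root held 0.315 and 0.109 CPM of the 8'-hydroxylase 4 isoform 1. That was 34.5-fold below severe root (log2 -5.11, SE 0.82, edgeR adjusted p = 0.0017) and 31.3-fold below the late control (log2 -4.97, SE 0.82, adjusted p = 0.013). All 4 members fell in rewatered root against severe root, where 49.4% of all genes were called (27.4% higher and 22% lower). Of these, the 8'-hydroxylase 2-like gene passed the root filter on low counts through the severe group alone. In rewatered leaf against severe leaf 2 of 3 fell, where 59.3% were called (29.1% higher and 30.2% lower). Against the late control, the 8'-hydroxylase 4 isoform 1 was the 1 of 4 members called in rewatered root, where 17% of all genes were called (8.53% higher and 8.44% lower). In rewatered leaf 0 of 3 were called, where 4.56% were called and edgeR gave 5815 genes an unadjusted p under 0.05. The comparisons of severe drought and of rewatering share the late control. Against the day 13 root control the rewatered value was -1.09 (adjusted p = 0.49), and the call against the late control was absent without late control replicate 2 (-4.64, 0.089), without rewatered replicate 2 (-4.37, 0.07) and with limma on the RPKM plus 1 (-1.15, 0.17) or plus 0.1 (-1.64, 0.13).

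Severe root, moderate root and the late root control formed the top of the order for this gene and overlapped in turn, and the day 13 control and rewatered root overlapped below them. Genes named for xylem, phloem or sieve elements moved in part with it: 43 of them summed to between 2578 and 3384 CPM in late root controls and between 2244 and 2655 CPM in moderate root, against 1478 to 2017 CPM on watered day 13 and 1386 to 1505 CPM after rewatering. In severe root, where the gene was as high, that sum was 1121 to 1241 CPM. Between 1 and 5 of the 43 genes were at 0 in these groups, and 7 in rewatered root. Gene by gene, of the 32 tested in root, 1 rose and 0 fell in moderate drought. In severe drought 3 rose and 20 fell against the late control. Histone and cyclin genes, 30 in number, summed to between 583 and 648 CPM in the late control and between 1163 and 1454 CPM on watered day 13, with 749 to 876 CPM in moderate, 425 to 477 CPM in severe and 941 to 1226 CPM in rewatered root. The part of either in these values was not tested.

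In leaf the 8'-hydroxylase 4 isoform 1 had 0 to 2 reads per library, below the 3 reads (0.0384 to 0.0797 CPM) taken as the floor for a library, and it was not tested in the leaf fit. Root to leaf ratios were therefore taken from the reads, scaled to library size, with exact 95% counting intervals. In moderate drought 847 root reads stood against 2 leaf reads, a ratio of 381 (105 to 3154), and in severe drought 598 stood against 2, a ratio of 335 (92.4 to 2775). After rewatering 19 stood against 1, a ratio of 22.8 (3.63 to 948). These intervals cover counting error only, and the organ tests of the drought effects were not called for this gene (edgeR adjusted p = 0.61 for moderate and 0.77 for severe drought). Its leaf against root calls on watered day 13 and after rewatering were absent with limma on either RPKM scale (adjusted p of 0.92 to 1), and the latter also without rewatered root replicate 1 (log2 -3.43, edgeR adjusted p = 0.063).

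In watered leaf no member was called between day 0 and day 13 (1.83% of all genes called, 1.31% higher and 0.517% lower, 4015 with an unadjusted p under 0.05 in edgeR), between day 0 and the late control (6.69%, 3.88% higher and 2.81% lower, 5556 genes) or between day 13 and the late control (0.513%, 4348 genes). In severe leaf, the same histone and cyclin genes summed to between 561 and 638 CPM against 4012 to 6161 CPM in the late control, and the photosynthesis sum was 15676 to 16741 CPM against 17961 to 25003 CPM. Their part in the leaf values was not tested.

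The rest of the pathway was read from 6 lists holding 45 other genes, found by words in the deposited descriptions. Under severe drought 25 of the 36 tested in leaf rose and 1 fell, with a median log2 change of 0.89 against 0.03 for all genes, of which 27.6% rose and 29.5% fell. In root 10 of 39 rose and 15 fell, with a median of -0.36 against -0.04 for all genes, of which 19.5% rose and 25.6% fell. Some of the genes tested, named below, passed the filter on low counts through the severe group alone, in leaf or in root. Under moderate drought 0 of 36 were called in leaf, where 0.00431% of all genes (1 gene) were called. In moderate root 5 of 39 rose and 1 fell, where 1.98% of all genes rose and 0.754% fell. Across the alternative settings the number rising in severe leaf ran from 14 to 26, and in severe root from 4 to 16 rising and 9 to 18 falling. In moderate root they ran from 0 to 12 rising and 0 to 3 falling. In the edgeR fit of only the groups compared no gene at all was called in moderate root, with 3811 at an unadjusted p under 0.05, whereas DESeq2 called 2944, so the moderate root calls of pathway genes given below were absent in that fit.

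**Figure D3:**
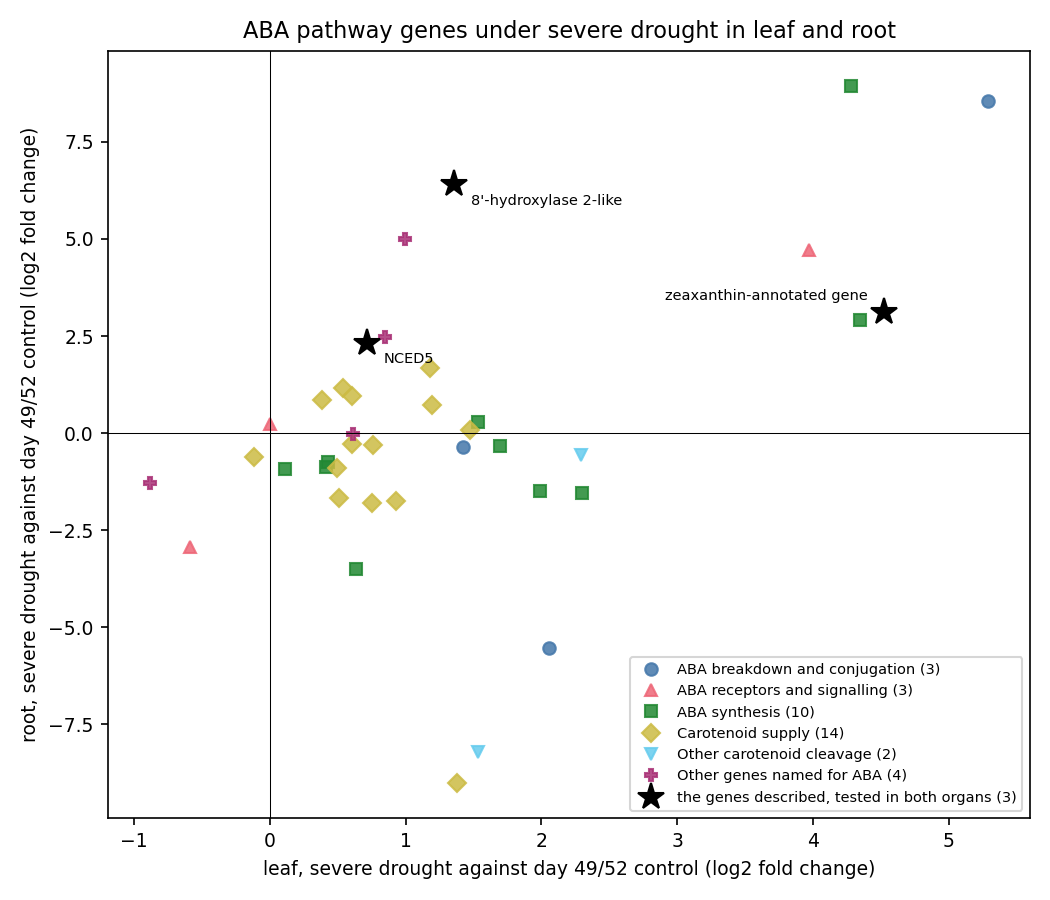
Log2 fold change under severe drought in leaf (horizontal) and root (vertical) for 36 other genes of 6 pathway lists, with symbols by list and the number plotted in brackets, and for the 3 described genes tested in both organs (stars). Most points lie to the right of 0, and they lie on both sides of 0 in the vertical direction.

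Among the other synthesis genes, 7 of 10 tested rose and 0 fell in severe leaf (median 1.62), and 2 rose and 5 fell in severe root (median -0.81). Another dioxygenase, NCED6 (Jcr4S01018.80), stood at 145 and 86.3 CPM in severe root against 0.261 and 0.179 CPM in the late control, 495-fold higher (log2 8.95, SE 0.69, edgeR adjusted p = 0.00012), and at 0.793 and 0.221 CPM in moderate root, where NCED5 was at its highest. In leaf NCED6 held 1.66 and 0.216 CPM in severe drought and at most 0.0631 CPM in the other groups. It passed the filter on low counts in leaf through the severe group alone. An NCED3 family gene (Jcr4S03683.20) rose in root in both droughts. It held 108 and 15.4 CPM in moderate root against 1.5 and 2.78 CPM (log2 4.89, SE 0.89, edgeR adjusted p = 0.041), and 53.4 and 31.6 CPM in severe root against 5.10 and 5.83 CPM (log2 2.91, SE 0.81, adjusted p = 0.021). Its moderate call was absent with only the groups compared (4.88, 0.15) and without day 13 control replicate 1 (4.50, 0.059), day 13 control replicate 2 (5.35, 0.16) or moderate replicate 1 (2.90, 0.091). In severe leaf it rose 20.3-fold, to 21.9 and 12.8 CPM from 1.20 and 0.455 CPM (adjusted p = 0.00042).

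NCED4 (Jcr4S07014.20) was listed with the synthesis genes by its description alone. It fell in severe root, to 0.310 and 0.710 CPM from 6.31 and 4.89 CPM (log2 -3.49, SE 0.41, edgeR adjusted p = 0.00058). An aldehyde oxidase gene (Jcr4S00486.10), from the enzyme family that makes ABA from its aldehyde, rose 4.92-fold in severe leaf (adjusted p = 0.0029), to 6.55 and 25.0 CPM from 2.86 and 3.48 CPM, and fell in severe root, to 127 and 109 CPM from 376 and 295 CPM (log2 -1.55, SE 0.54, adjusted p = 0.048). The day 13 root controls of the aldehyde oxidase gene held 65.2 and 72.3 CPM, below both severe root libraries. Its lower level in severe root was thus seen against the late control and not against day 13. A molybdenum cofactor sulfurase gene (Jcr4S24236.10), whose product activates aldehyde oxidases, fell in severe root by 0.93 on the log2 scale (SE 0.23, adjusted p = 0.013).

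Of 4 other breakdown and conjugation genes, 3 of 3 tested rose in severe leaf (median 2.06), and 2 of 4 rose and 1 fell in severe root (median 3.22). The 8'-hydroxylase 4 isoform 2 (Jcr4S01858.60) stood at 6.74 and 19.4 CPM in severe root against 0 and 0.0673 CPM in the late control. The 8'-hydroxylase 4-like gene (Jcr4S12027.10) stood at 5.22 and 16.4 CPM against 0.0934 and 0.0897 CPM. Both were called (edgeR adjusted p = 0.00082 and 0.0017), but they had passed the filter on low counts in root through the severe group alone. Both were at or under 0.0844 CPM in moderate root, where isoform 1 had risen. In leaf isoform 2 held 0.303 and 0.778 CPM in severe drought and at most 0.0240 CPM in the other groups. Its rise, counted above for severe leaf, was likewise tested through the severe group alone. The descriptions place these genes in 1 family, and since no source used here gives the treatment of reads matching several genes, reads could be split among near-identical copies.

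The 8'-hydroxylase 3-like gene (Jcr4S00544.20) held 84.7 and 153 CPM in the late root control and 59.7 and 37.7 CPM in moderate root. It held 0.721 and 5.28 CPM on watered day 13 in root, 3.31 and 2.01 CPM in severe root and 5.69 and 0.689 CPM in rewatered root. Severe root was 46.3-fold below the late control (log2 -5.53, SE 1.19, edgeR adjusted p = 0.0078) and rewatered root 36.9-fold below it (log2 -5.21, SE 1.17, adjusted p = 0.026), while the moderate value of 4.08 was not called (SE 1.12, adjusted p = 0.09). As for isoform 1, both late control libraries lay above both day 13 controls in root. Its severe root libraries lay below both late controls, where those of isoform 1 overlapped them.

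**Figure D4:**
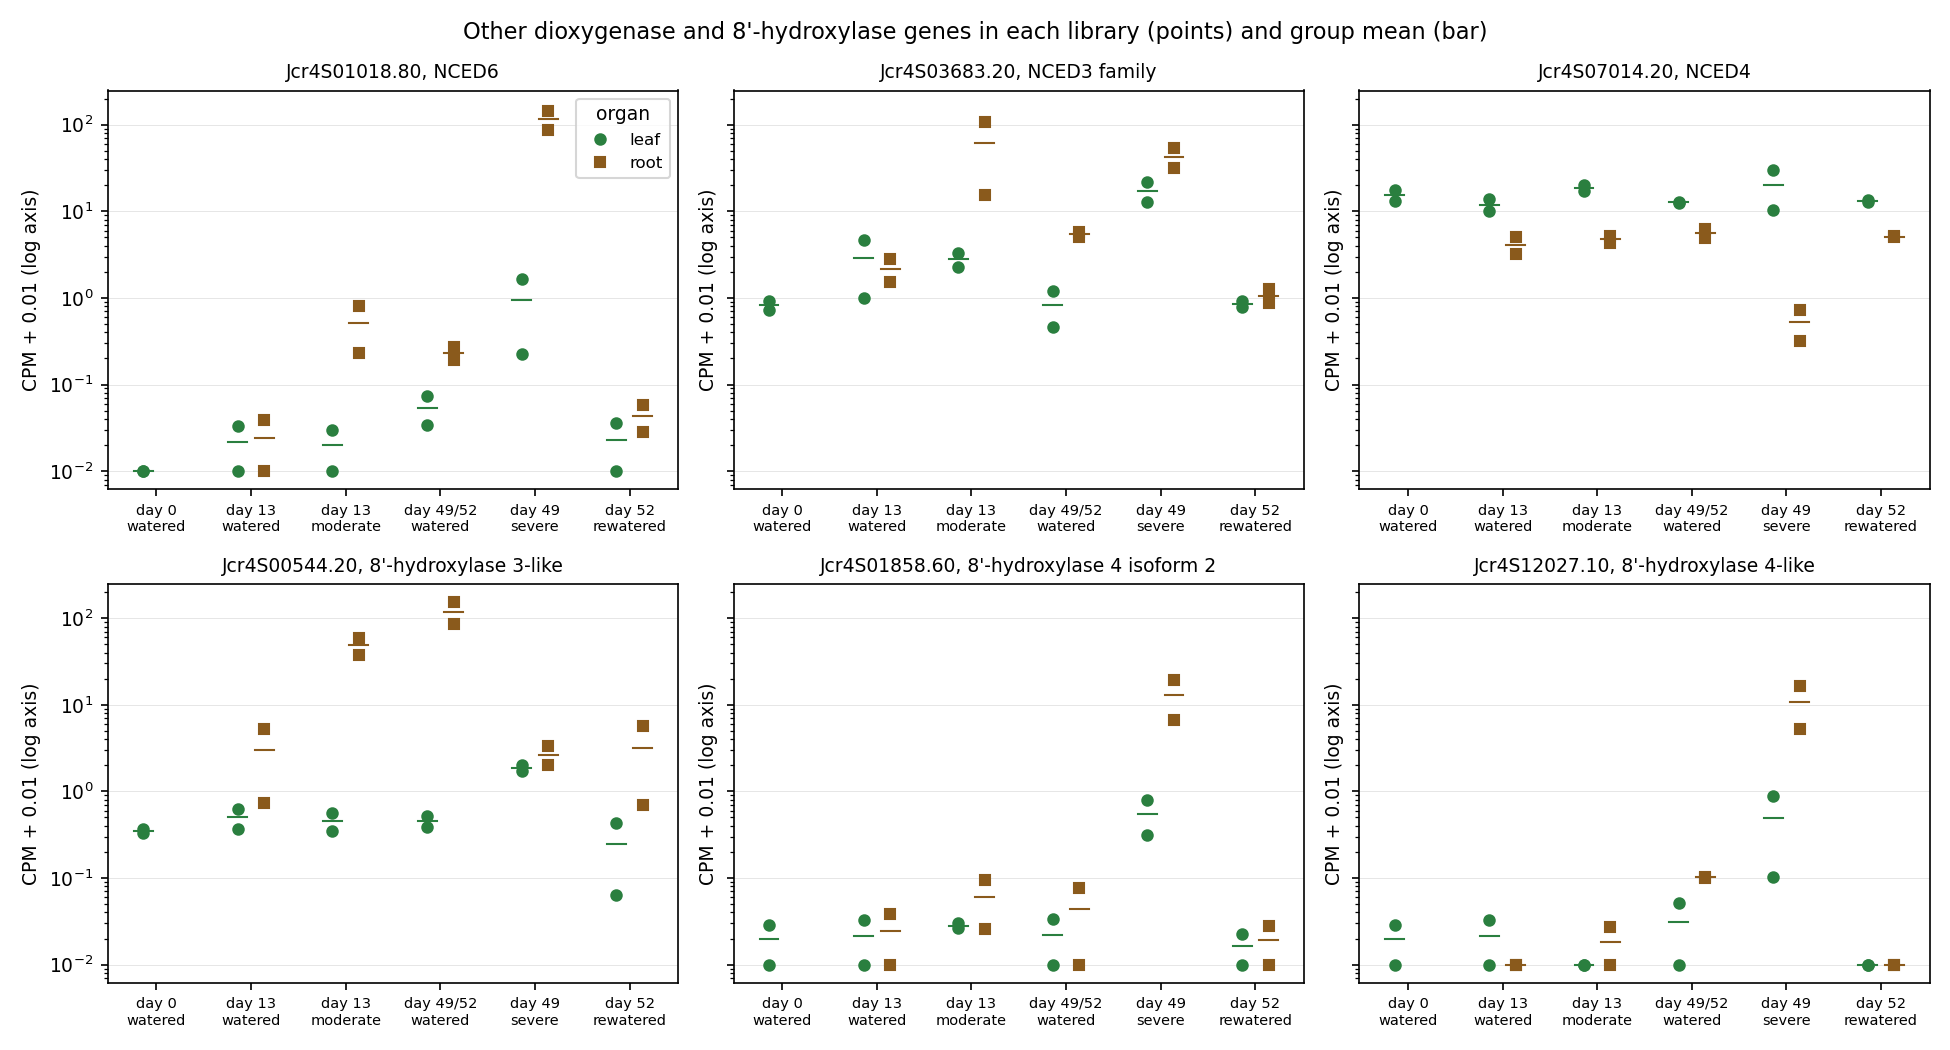
Level (CPM plus 0.01, log axis) of 3 other dioxygenase genes (upper row) and 3 other 8'-hydroxylase genes (lower row) in the 22 libraries, with leaf as circles, root as squares and bars at group means. NCED6 and the hydroxylases 4 isoform 2 and 4-like reach over 5 CPM in severe root alone, and the 3-like gene is highest in the late root control.

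Of the carotenoid supply genes, 10 of 14 tested rose in severe leaf with 0 falling (median 0.68), and in root 3 of 15 rose and 5 fell (median -0.30), near the shares of all genes given above. Not all of this list acts upstream of zeaxanthin, as it also holds genes described as violaxanthin de-epoxidases. Beta-carotene hydroxylase (Jcr4S01869.30), which makes zeaxanthin from beta-carotene, rose in moderate root to 114 and 70.9 CPM from 14.1 and 19.2 CPM (log2 2.50, SE 0.28, edgeR adjusted p = 0.019), a call absent without day 13 control replicate 2 (2.71, 0.094) or moderate replicate 1 (2.13, 0.073). It also rose in severe root (log2 1.69, SE 0.27, adjusted p = 0.0021) and in severe leaf (log2 1.18, SE 0.31, adjusted p = 0.0076). The zeta-carotene desaturase models Jcr4S01529.40 and Jcr4S01529.50 rose in severe leaf by 0.75 and 0.93 on the log2 scale (adjusted p = 0.028 and 0.0048) and fell in severe root by 1.80 and 1.75 (adjusted p = 0.00083 and 0.0017). Phytoene dehydrogenase (Jcr4S03283.10) and phytoene desaturase 3 (Jcr4S00386.20), which act early in carotenoid synthesis, rose in severe leaf by 1.48 and 1.19 (adjusted p = 3.6e-05 and 0.0013) and were not called in severe root (adjusted p = 0.7 and 0.088).

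Of the receptor and signalling genes, 3 of 5 were tested, and the phosphatase described as highly ABA-induced PP2C gene 2 (Jcr4S07634.50), of a class that dampens ABA signalling, rose in severe drought in leaf 15.7-fold and in root 26.1-fold (edgeR adjusted p = 4e-06 and 0.00018). The receptor gene PYL4-like (Jcr4S01692.40) fell in root in moderate (log2 -2.30, SE 0.25, adjusted p = 0.019) and severe drought (log2 -2.92, SE 0.26, adjusted p = 2e-04), the moderate call being absent without day 13 control replicate 2 (-1.98, 0.084) or moderate replicate 1 (-2.06, 0.09).

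The described genes whose profiles over the 11 group means lay nearest to each member were found by the root mean square difference of centred log2 levels, among 18479 genes with a description. The bound of the nearest 1% of all genes tested is given for scale only. The genes were picked as the nearest, so lying under that bound is no test of likeness. For NCED5 the nearest was c-repeat binding factor 4c (Jcr4S02476.10) at 0.99, then a Rossmann-fold protein gene (Jcr4S00151.10) at 1.06 and an AP2/EREBP-like factor (Jcr4S02357.40) at 1.07, where the nearest 1% of all genes tested lay under 1.501. In moderate root the first stood at 4.22 and 1.39 CPM against 0.171 and 0.258 CPM in the day 13 control and the next at 41.0 and 44.4 CPM against 20.98 and 12.9 CPM, while the last stood at 4.96 and 7.90 CPM against 3.17 and 10.4 CPM, groups that overlapped. For the zeaxanthin-annotated gene they were 6-phosphofructokinase 2 (Jcr4S03224.50) at 0.45, a nitrate transporter family gene (Jcr4S00084.10) at 0.47 and a gene described as DNA binding (Jcr4S00146.190) at 0.54, with 0.94 for the nearest 1%. The first of these stood at 115 and 111 CPM in severe leaf against 11.5 and 10.9 CPM in the late control.

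For the 8'-hydroxylase 2-like gene the nearest were a peptide or nitrate transporter (Jcr4S01020.70) at 0.66, an abscisic stress-ripening protein gene (Jcr4S01111.70) at 0.74 and a zinc finger gene (Jcr4S04864.40) at 0.89, with 1.71 for the nearest 1%. The stress-ripening gene stood at 4.32 and 5.46 CPM in severe root against 0.0934 and 0.202 CPM in the late control, and at 45.7 and 36.6 CPM in severe leaf against 18.3 and 22.2 CPM. For the 8'-hydroxylase 4 isoform 1 they were an anthranilate N-benzoyltransferase gene (Jcr4S01902.20) at 0.78, a terpene synthase gene (Jcr4S04451.10) at 0.80 and a putative cytochrome P450 gene (Jcr4S04281.20) at 0.85, with 1.55 for the nearest 1%. Severe root and the late control overlapped for isoform 1 but for none of these neighbours. The first held 27.8 and 24.4 CPM in severe root against 4.18 and 5.05 CPM in the late control. The second held 8.17 and 12.7 CPM against 14.6 and 24.9 CPM, and the last 1.94 and 4.48 CPM against 22.4 and 38.2 CPM.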

How the data were processed

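The members and gene lists were chosen with earlier results of these data known. Read counts per gene model, whole numbers without normalization, were deposited by the authors. RPKM values were also deposited by the authors: their lowest value is 1.0, held wherever the count is 0, and sorted columns differ by at most 0.7. The aligner, counting program, build and handling of multiply matching reads: not given in the sources used here. TruSeq v2 libraries (50 bp single-end reads, 400 ng of RNA), per the labels' protocols, keep no strand.

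Counts were tested in R 4.3.3 with edgeR 4.0.16: filterByExpr (minimum count 10), TMM scaling and robust quasi-likelihood fits of group means, with 23200 genes tested over the 12 leaf libraries, 24924 over the 10 from root and, for organ comparisons, 25939 over all 22. Tests were two-sided, and adjustment ran over all genes of a fit. Standard errors came from the F statistic. The fits were tested on simulated data. The genes named are the 4 members, up to 3 rising and 3 falling genes per list with the largest severe drought changes, and 3 nearest profiles per member (prior count 2; genes called hypothetical or uncharacterised left out). Alternatives used DESeq2 1.42.0, limma 3.58.1 on the log2 of RPKM plus 1 or 0.1, other filters, scalings, fits and controls, and each library left out. In the limma runs the constant came on top of the RPKM floor of 1.0. The spread between libraries exceeded counting error in all 11 groups (chi-square per degree of freedom 11.3 to 145).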

Additional observations from a re-analysis of the deposited data

Results flagged for a closer look

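In total 10 effects differed between organs or between droughts by the test of the difference itself (edgeR quasi-likelihood, Benjamini-Hochberg adjusted). Between organs, leaf minus root, NCED5 (Jcr4S15630.10) had a moderate drought effect of -4.34 on the log2 scale. The zeaxanthin-annotated gene (Jcr4S00215.20) had 1.39 for severe drought and -1.11 for rewatering against severe drought, and the 8'-hydroxylase 2-like gene (Jcr4S05715.10) had -5.08 and 5.67.

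Between droughts, severe minus moderate, the zeaxanthin-annotated gene had 3.96 in leaf and 2.26 in root. In root NCED5 had -1.46, the 8'-hydroxylase 2-like gene 6.01 and the 8'-hydroxylase 4 isoform 1 (Jcr4S01285.10) -3.84. The 8'-hydroxylase 2-like gene entered the root tests through the severe group alone. The severe and moderate effects were taken against different controls on different days.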

How the results depend on the processing

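With the main settings, 2 members were called in moderate root, against 2.74% of all genes. With limma on the RPKM plus 1 or plus 0.1 it was 1. With only the groups compared it was 0, and there 0 of all 23308 genes tested were called. The member count also moved with a library left out, which leaves 1 library in a group. Calls over all genes moved too: they fell without day 13 control replicate 2 or moderate replicate 1, and rose without the other library of either group. For rewatered root against the late control, 1 was called, 0 on either RPKM scale or with the day 13 control, and 0 to 1 with a library left out. For the organ difference under moderate drought, 1 was called, 0 with only the groups compared, and 0 to 1 with a library left out. For the severe minus moderate difference, leaf went from 1 to 2 with the stricter filter and with DESeq2 (1 to 2 with a library left out), and root from 4 to 2 on the RPKM plus 0.1 (2 to 4). Between watered roots, 2 became 0 on either RPKM scale and 1 in the single fit (0 to 2), and between watered leaves 0 became 1 with no filter. Between organs on watered day 13, 4 became 2 on the RPKM plus 1, and after rewatering 3 to 4 were called with a library left out. Other counts moved by no more than 1.5 times.

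Values that turned sign were not called under either setting, with 1 exception. With the day 13 control they were NCED5 in severe leaf (-0.86) and its severe minus moderate leaf difference (-0.33), the zeaxanthin-annotated gene after rewatering (leaf -0.013, root 0.33), the 8'-hydroxylase 2-like gene in rewatered leaf (-0.20), and the root severe minus moderate difference of the 8'-hydroxylase 4 isoform 1 (0.040), which was called with the late control. With 1 library left out, NCED5 ran from -1.21 to 0.77 in moderate leaf and from -0.062 to 1.91 for the leaf severe minus moderate difference. The zeaxanthin-annotated gene ran from -0.081 to 0.33 in rewatered leaf, and the 8'-hydroxylase 4 isoform 1 from -0.13 to 0.45 in severe root. The 8'-hydroxylase 2-like gene ran from -0.15 to 0.65 for the moderate organ difference, from -0.70 to 0.24 between watered roots, from -1.02 to 0.12 in rewatered root and from -0.057 to 0.31 in rewatered leaf. The causes were not tested. Over all genes, calls in moderate root ran from 0 with only the groups compared to 4311 with no filter, against 682. Of the other pathway genes, counts of calls were computed under the alternatives, and single values only for moderate root, an addition made after seeing the data.

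Replicate numbers did not pair the groups within an organ: same-numbered deviations correlated at -0.24 to 0.28 in leaf and -0.22 to 0.20 in root. Whether they pair leaf with root of the same condition was not tested. A replicate block changed no count of members called (moderate root 2, severe root 3, severe leaf 2). With 2 libraries a group, depth (3 reads are at most 0.086 CPM in root and 0.0797 in leaf) limits the 8'-hydroxylases in the organ where each is near 0, and the spread between libraries limits the rest.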

Other observations

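A gene described as phytoene chloroplast (Jcr4S03608.50), a root transcript of the carotenoid supply list, stood at 0.207 and 0.343 CPM in severe root against 101 and 176 CPM in the late control, 515-fold lower (log2 -9.01, SE 0.55, edgeR adjusted p = 5.7e-05), and at 63.3 and 93.0 CPM after rewatering. Among the 3 other carotenoid cleavage genes, 2 fell in severe root. Jcr4S01272.40 went to 0.310 and 0.245 CPM from 55.7 and 104 CPM (log2 -8.21, SE 0.42, adjusted p = 3.3e-05), and Jcr4S00534.70 to 0.0258 and 0.122 CPM from 15.7 and 29.7 CPM (log2 -8.23, SE 0.82, adjusted p = 0.00032). Neither was above 0.416 CPM in any leaf library. The third, carotenoid cleavage dioxygenase 1 (Jcr4S07308.30), rose 4.89-fold in severe leaf, to 336 and 377 CPM from 49.2 and 94.4 CPM (adjusted p = 9.2e-05), and 2.33-fold in moderate root (adjusted p = 0.043), a call absent without day 13 control replicate 2 (log2 1.05, adjusted p = 0.18) or moderate replicate 1 (0.94, 0.24) and with only the groups compared (1.21, 0.14).

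Of 4 genes otherwise named for ABA, 3 rose and 1 fell in severe leaf, and 2 rose and 1 fell in severe root. The abscisic stress-ripening genes Jcr4S01111.70 and Jcr4S16134.10 rose in severe root by 5.00 and 2.48 on the log2 scale (SE 0.60 and 0.71, edgeR adjusted p = 0.00065 and 0.023) from under 0.3 CPM. An HVA22 family gene (Jcr4S00357.20) fell in leaf by 0.88 and in root by 1.29 (SE 0.13 and 0.17, adjusted p = 0.00019 and 0.00097). A further stress-ripening-like gene (Jcr4S00939.10) was 4.61-fold lower in rewatered root than in the late control (adjusted p = 0.017), at 166 and 124 CPM against 693 and 675 CPM. Its day 13 root controls held 90.8 and 89.8 CPM, below both rewatered libraries.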
